A study of Mus musculus with 41 samples.

Results

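Mouse embryonic endocardial cells (MEEC) that had spent 6 h over OP9 feeder cells expressing the Notch ligand Jag1 were compared with MEEC that had spent 6 h over OP9 cells expressing GFP. MEEC are a wild-type mouse cell line labelled as endocardial, and OP9 is a mouse bone marrow stromal line that is widely used as a feeder. The comparison holds 6 of the 41 libraries of the series, 3 per group, and all 13886 genes of its table were tested. MEEC were laid at 50% confluency over feeder cells at 90%, without any drug, and libraries were paired by the replicate number in their names. The comparison asks which genes respond first to contact with a cell that presents Jag1. The fit also held the 3 OP9-Dll4 libraries of 6 h, which share in the estimates of the scatter and of the replicate number effect. Other libraries were used only beside the comparison. These were OP9-GFP and OP9-Jag1 at 24 h with MEEC at 25% confluency (n = 3 each). Further ones were OP9-GFP at 6 h after 24 h of DMSO or of 20 µM RO4929097 (n = 4 each). The rest were wells without feeder cells, with DMSO alone or with recombinant rJAG1 and DMSO, for 38 h (n = 3 each). The 24 h fits also held OP9-Dll4 at 24 h (n = 3). The rJAG1 fit also held wells with rDLL4, and with rDLL4 or rJAG1 plus 20 µM RO4929097 (n = 3 each). In the wells without feeder cells the 38 h were 24 h of culture followed by 14 h without serum. The labels do not say how MEEC RNA was separated from feeder RNA, nor whether the Jag1 cDNA in the feeder is of mouse origin.

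Notch is a receptor that works by contact. A ligand of the Jagged or Delta-like type on a neighbouring cell pulls on the receptor, a metalloproteinase and then gamma-secretase cut it, and the freed intracellular fragment enters the nucleus, where it joins the DNA-binding protein RBPJ and switches on genes such as Hes1, the Hey family and Nrarp. In the endocardium, which lines the chambers of the heart, this pathway is known for its part in valve formation and in the growth of the trabeculae. RO4929097 blocks gamma-secretase.

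Values are the authors' normalized signal, reads per gene divided by a library size that was scaled between libraries. Fold changes (log2FC) are differences of log2(signal + 1), with a standard error (SE), from limma. On this scale the change of a weakly expressed gene comes out too small. A gene was called at a Benjamini-Hochberg adjusted p under 0.05 over all genes. The 9 libraries of 6 h held 14.5 to 16.3 M reads, so that a gene with 0 reads could have a signal of up to 0.179 to 0.202 (3 reads, counting error only). In each of the 6 h groups the library numbered 2 stood apart. Chi-square per gene within OP9-GFP was 32.3 between libraries 1 and 2, 18.7 between 2 and 3 and 5.48 between 1 and 3, and within OP9-Jag1 it was 21.5, 12.8 and 6.31. Same-numbered libraries deviated from their group means together, with correlations across genes of 0.54, 0.59 and 0.21 in the 3 pairs. With library 2 apart in each group, these values cannot show that libraries 1 and 3 are paired. The labels do not tie replicates to separate cultures or days, and the p-values speak only of the scatter among these libraries, part of which may be technical.

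Contact with OP9-Jag1 for 6 h changed 470 genes (3.38% of those tested): 263 were higher (1.89%) and 207 lower (1.49%). Most changes were small. The median size of the log2FC was 0.33 among the higher and 0.29 among the lower genes, and it passed 1 in 5 higher and 7 lower genes. All 263 higher genes and 205 of the 207 lower genes moved the same way in all 3 pairs, against 5394 of all 13886 genes. The signals of the 2 groups did not overlap in 151 of the higher genes (57.4%) and 117 of the lower genes (56.5%), against 1291 of all genes (9.3%). Both counts describe the values from which the genes were called, so they are not separate support for the calls. The count depended on the pairing. Without the replicate number as a block 2 genes were called, Tuft1 and Prag1, and 14 were called in an unpaired fit of all 18 co-culture libraries: Nrarp, Hey1, Hey2, Ackr3, Tuft1, Crybg1, Aggf1, Rhoj, Nt5c3 and Tec, which were higher, and Bdnf, Irs1, Fgf5 and Edn1, which were lower. A paired fit of only the OP9-Jag1 and OP9-GFP libraries of 6 h called 314 genes, 187 higher and 127 lower, and 309 of them were among the 470. On the reads recovered from the signal edgeR called 472 genes and DESeq2 279. Without the 3 libraries numbered 1, 2 or 3 the count was 157, 248 or 161.

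**Figure D1:**
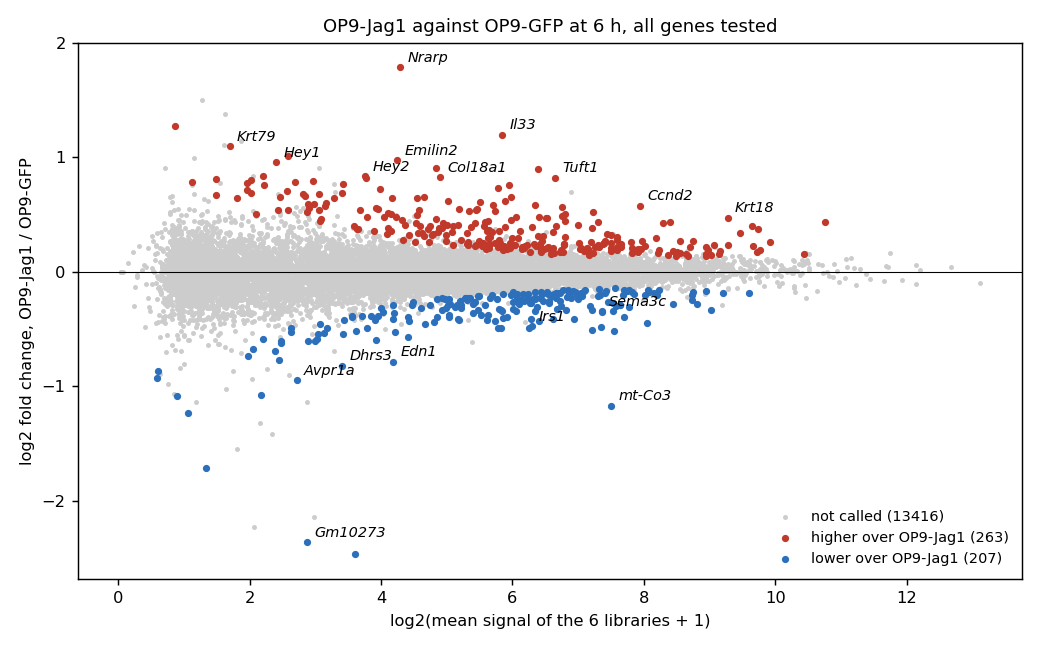
Each point is a gene; the horizontal axis is log2 of its mean signal + 1 over the 6 libraries, the vertical axis its log2 fold change over OP9-Jag1 against OP9-GFP at 6 h. The 263 genes called higher (red) and the 207 called lower (blue) lie mostly within 0.5 of 0, while Nrarp stands highest at 1.79.

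Of 5 core Notch targets 4 were higher, where 1.89% of all genes were. The median log2FC of the 5 was 0.84 against -0.00 over all genes. Nrarp, a feedback inhibitor of Notch that is itself switched on by the pathway (Ensembl ENSMUSG00000078202, GRCm38 chr2:25180758-25183339, plus strand), had signals of 8.89, 5.67 and 8.16 over OP9-GFP and of 39.7, 18.5 and 30.3 over OP9-Jag1. The lowest OP9-Jag1 library was above the highest OP9-GFP library, although library 2 was low in both groups. The log2FC was 1.79 ± 0.11 (SE; adjusted p = 6.7e-06), the largest rise of any called gene.

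Hey1, a transcriptional repressor of the Hairy/Enhancer of split family, went from 1.88, 3.01 and 2.92 to 6.00, 6.99 and 4.94. Its groups did not overlap, and the log2FC was 0.96 ± 0.14 (adjusted p = 0.002). Hey2, its close relative (ENSMUSG00000019789, chr10:30832359-30842801, minus strand), went from 9.52, 9.54 and 7.09 to 18.6, 16.01 and 14.3, a log2FC of 0.84 ± 0.09 (adjusted p = 0.00029), again without overlap. Hes1, a repressor of the same family, went from 41.1, 35.9 and 45.2 to 64.9, 56.9 and 62.6. That is a log2FC of 0.59 ± 0.05 (adjusted p = 3.1e-05), and the groups were apart. Heyl was near the detection limit at 0.159, 0.602 and 0.369 over OP9-GFP against 0.694, 1.03 and 0.521 over OP9-Jag1, and did not pass (log2FC 0.35 ± 0.17, adjusted p = 0.33). In the wider list of 14 Notch targets the other gene called was Gata3, a zinc-finger transcription factor (log2FC 0.54 ± 0.06). Myc, a Notch target in T cells, was not called (0.15, adjusted p = 0.12), nor was Efnb2, an arterial ligand (-0.01, adjusted p = 0.91).

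**Figure D2:**
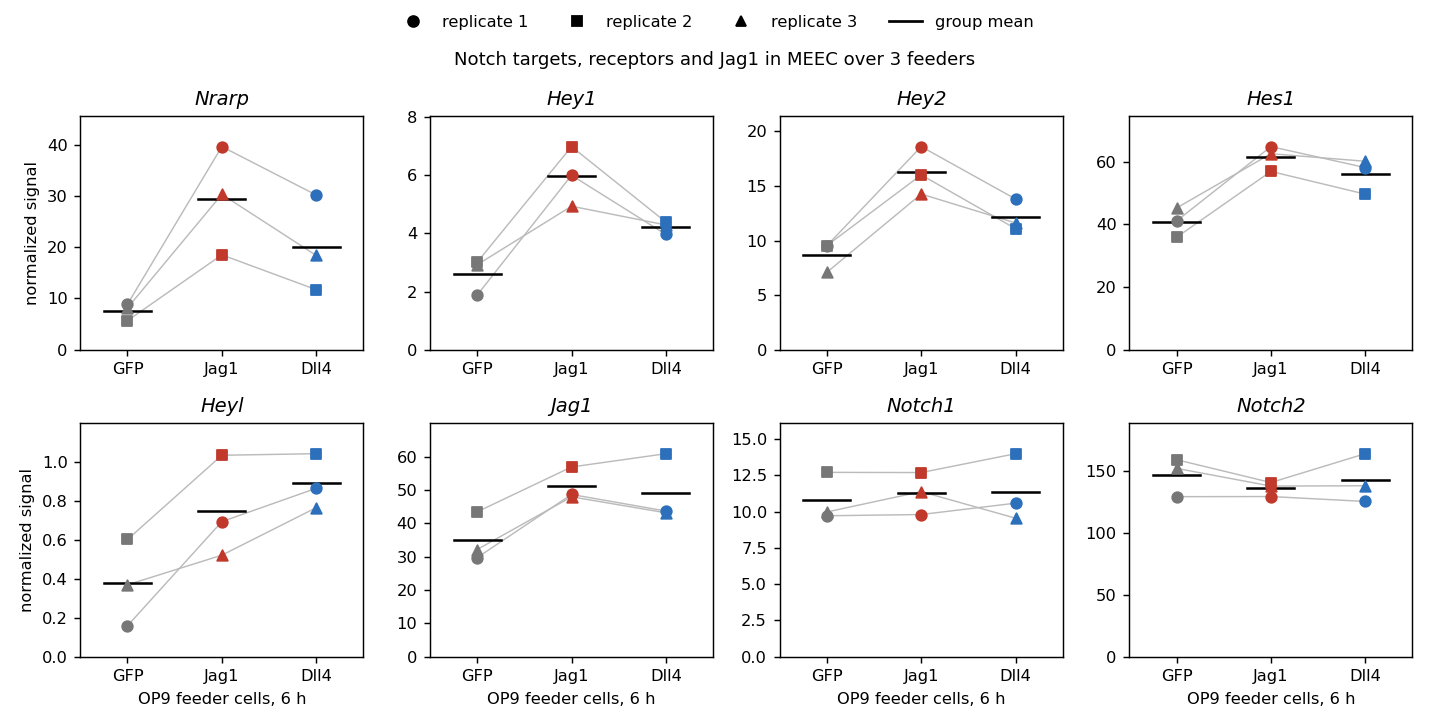
Normalized signal (vertical axis, starting at 0) of 8 Notch pathway genes in MEEC over the 3 feeders at 6 h; each marker is a library, its shape gives the replicate number, grey lines join same-numbered libraries and black bars are group means. Nrarp, Hey1, Hey2, Hes1 and Jag1 were higher over OP9-Jag1 than over OP9-GFP in each of the 3 pairs, while Notch1 and Notch2 were not called.

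RBPJ binds DNA at sites built around TGGGAA, so the start-site windows of these genes are shown. Windows of 250 bases before to 50 after the start of transcription come from RefSeq (GRCm38.p6). Such a window was found for 9 of the 14 largest rises and 5 of the 10 largest falls. Of these, 5 rises and 2 falls had the motif in a window. The window of Hey2 holds the motif in 2 places and that of Nrarp in none. They are printed 5′ to 3′ on the strand of the gene, with TGGGAA or its reverse complement TTCCCA in capitals. Hey2 runs over 270 bases (chr10:30842764-30843033, minus strand) and Nrarp over the 250 bases before its start (chr2:25180508-25180757, plus strand).
Hey2: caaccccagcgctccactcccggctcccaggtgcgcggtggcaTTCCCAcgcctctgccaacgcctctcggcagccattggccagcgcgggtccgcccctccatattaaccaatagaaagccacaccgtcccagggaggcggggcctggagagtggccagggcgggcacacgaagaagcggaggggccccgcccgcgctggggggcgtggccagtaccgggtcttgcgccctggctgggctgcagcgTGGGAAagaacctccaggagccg
Nrarp: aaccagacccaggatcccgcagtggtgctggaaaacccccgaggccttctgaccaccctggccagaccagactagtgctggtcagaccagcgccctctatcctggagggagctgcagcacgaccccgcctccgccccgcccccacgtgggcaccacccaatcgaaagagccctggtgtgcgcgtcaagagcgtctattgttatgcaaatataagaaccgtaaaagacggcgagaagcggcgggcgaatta
The other 4 large rises with a match, and the 2 large falls with a match, are given as the motif with 10 bases on each side. Most of these genes have more than 1 annotated start. The matches lie 129 bases before a start of Il33 that is inside the gene (chr19:29945651-29945676, plus strand), 157 before a start of Emilin2 (chr17:71311153-71311178, minus strand), 63 before one of Col18a1 (chr10:77113753-77113778, minus strand) and 204 before one of Ptprn (chr1:75264397-75264422, minus strand). Each of these 4 genes has another window with 0 matches, which for Il33 is the one at the first base of the gene. Among the falls a match lies 87 bases before a start of Dhrs3 (chr4:144892980-144893005, plus strand), with a further match 13 bases after another of its starts and 0 in another window, and 70 before the start of Rps27rt (chr9:114982794-114982819, minus strand).
Il33: atctgtctccTGGGAAcagctacaca
Emilin2: tgctggcgttTGGGAAgagaccaaag
Col18a1: ggaaggagacTGGGAAccaggaatga
Ptprn: gtggacccagTGGGAAttctagggag
Dhrs3: gcgctacaatTGGGAAacagcttttt
Rps27rt: tgtctccagcTTCCCActcccttccc
The motif, on either strand, was in 68 of 246 windows of higher genes (27.6%), 33 of 194 windows of lower genes (17.0%) and 2944 of 12756 windows of all genes tested (23.1%). Not every gene had a window: these cover 189 higher, 139 lower and 9995 tested genes, and Hes1 and Hey1 are not among them. CACGTG, a palindrome bound by basic helix-loop-helix proteins, was in 6.91%, 7.22% and 9.89% of the same windows. A match is only a stretch of letters, and binding was not measured.

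Of the 7 receptors and ligands measured, 1 was called. Endogenous or feeder-derived Jag1 RNA, which cannot be told apart in these libraries, went from 29.7, 43.4 and 32.1 over OP9-GFP to 48.6, 56.9 and 47.9 over OP9-Jag1 (log2FC 0.55 ± 0.06, adjusted p = 0.00033). Over OP9-Dll4 the same gene stood at 43.7, 60.9 and 43.1. The lowest OP9-Jag1 value was above the highest OP9-GFP value, and the OP9-Dll4 values overlapped those of both. In each same-numbered pair the OP9-Dll4 value was also above that of OP9-GFP. Notch1, the receptor of most endothelium, had 9.71, 12.7 and 9.97 against 9.80, 12.7 and 11.4 (log2FC 0.06 ± 0.09). Notch2 had 130, 160 and 153 against 130, 141 and 138 (log2FC -0.11 ± 0.05, adjusted p = 0.32). Notch3 (0.23), Jag2 (-0.13), Dlk1 (-0.20) and Dlk2 (-0.29) were not called either. The machinery that modifies, cuts and reads the receptor did not pass in any of its 32 members, whose log2FC ran from -0.33 to 0.15. Nearest to the threshold was Lfng, a glycosyltransferase that tunes the choice of ligand, with -0.33 and an adjusted p of 0.05002. Rbpj itself stood at -0.10 (adjusted p = 0.27).

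Chemokines and cytokines had 6 of 19 members higher and 1 lower (median log2FC 0.14). For this and the other lists below, the shares of all genes were 1.89% higher and 1.49% lower. Il33, a nuclear alarmin of the interleukin-1 family (ENSMUSG00000024810, chr19:29925114-29960718, plus strand), had signals of 40.5, 28.1 and 32.7 over OP9-GFP and 96.8, 65.0 and 74.9 over OP9-Jag1. The groups were far apart, and the log2FC was 1.197 ± 0.06 (adjusted p = 4.6e-07). Tnfsf11, which encodes the osteoclast cytokine RANKL, went from 2.83, 3.20 and 2.85 to 5.64, 7.80 and 7.64 (log2FC 1.01 ± 0.12, adjusted p = 0.00055), also without overlap. The neutrophil chemokine Cxcl1 went from 9.59, 12.1 and 11.1 to 17.1, 19.5 and 19.2 (log2FC 0.72 ± 0.07, adjusted p = 0.00018). Ccl2, a monocyte chemokine, was higher by 0.43 ± 0.05 although its groups overlapped at 122, 168 and 112 against 175, 201 and 161, and Ccl7 by 0.25 ± 0.05 (called in 2 of the 6 fits that each left out 1 library). Ccl20 (0.56 ± 0.12) passed with an adjusted p of 0.028 and lost the call in 5 of those 6 leave-one-out fits, where its log2FC ran from 0.41 to 0.69. Cxcl12, a chemokine of stromal cells, was the member that was lower (-0.45 ± 0.11, adjusted p = 0.0497). It stood at 178, 504 and 258 against 182, 279 and 178, so the fall came from pairs 2 and 3, and without OP9-GFP replicate 2 its log2FC was -0.29 (adjusted p = 0.21). The inflammatory NF-kB list had 3 of 18 higher, the third being Tnfaip2 (0.22 ± 0.04, called in 1 of the 6 leave-one-out fits). Of 29 interferon-stimulated genes 2 were higher, Isg15 (0.50 ± 0.12) and Ifi27 (0.22 ± 0.05), each called in 1 of those 6 fits.

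Extracellular matrix genes had 6 of 39 higher and 0 lower, against 1.89% and 1.49% of all genes, while the list's median log2FC was 0.01. Emilin2, an elastic fibre glycoprotein, went from 8.63, 15.3 and 11.7 to 19.1, 30.9 and 22.5 (log2FC 0.97 ± 0.08, adjusted p = 2.2e-05). Col18a1, the basement membrane collagen that holds endostatin, went from 15.1, 26.6 and 20.1 to 30.2, 46.3 and 34.4 (0.83 ± 0.06, adjusted p = 2.2e-05). In both genes all OP9-Jag1 libraries were above all OP9-GFP libraries, and library 2 was the highest of its group. Col15a1, the related basement membrane collagen, rose in each pair (from 1.62, 6.56 and 3.19 to 4.01, 11.9 and 5.61, log2FC 0.79 ± 0.12) but its groups overlapped, since library 2 was high on both feeders. Elastin (Eln) behaved alike, at 2.77, 11.2 and 3.06 against 5.28, 15.1 and 6.53 (0.68 ± 0.12). Its adjusted p rose from 0.0069 to 0.058 at most with 1 library left out, and the call was lost without OP9-GFP or OP9-Jag1 replicate 3. Col6a1 and Col6a2 were higher by 0.26 ± 0.05 and 0.23 ± 0.05, each called in 2 of the 6 leave-one-out fits. Of 17 metalloproteinases and inhibitors Adamts4 (0.54 ± 0.11) and Adam12 (0.40 ± 0.05) were higher and Adamts9 was lower (-0.23 ± 0.06). Adamts4 and Adamts9 each lost the call in 5 of the 6 leave-one-out fits.

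Other genes among the 14 largest rises belong to no list. Tuft1, a secreted enamel-associated protein, was the most precisely measured, at 73.5, 72.9 and 67.7 against 130, 127 and 125 (log2FC 0.82 ± 0.04, adjusted p = 1.3e-06). Its 3 values per group lay within a narrow band, far apart between feeders. Prag1, a pseudokinase scaffold, went from 16.4, 20.3 and 20.2 to 36.5, 35.1 and 37.4 (0.91 ± 0.07). H19, an imprinted long noncoding RNA, varied by number (26.8, 84.6 and 67.6 over OP9-GFP) and was higher in each pair at 70.7, 145 and 99.8 (0.90 ± 0.11), with overlapping groups. Ptprn, a receptor-type phosphatase of secretory granules, was higher by 0.76 ± 0.10, Tmem158 by 0.82 ± 0.13 and Clca3a2, of the chloride channel accessory family, by 0.80 ± 0.11. All 14 of these rises were called in each of the 6 leave-one-out fits.

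**Figure D3:**
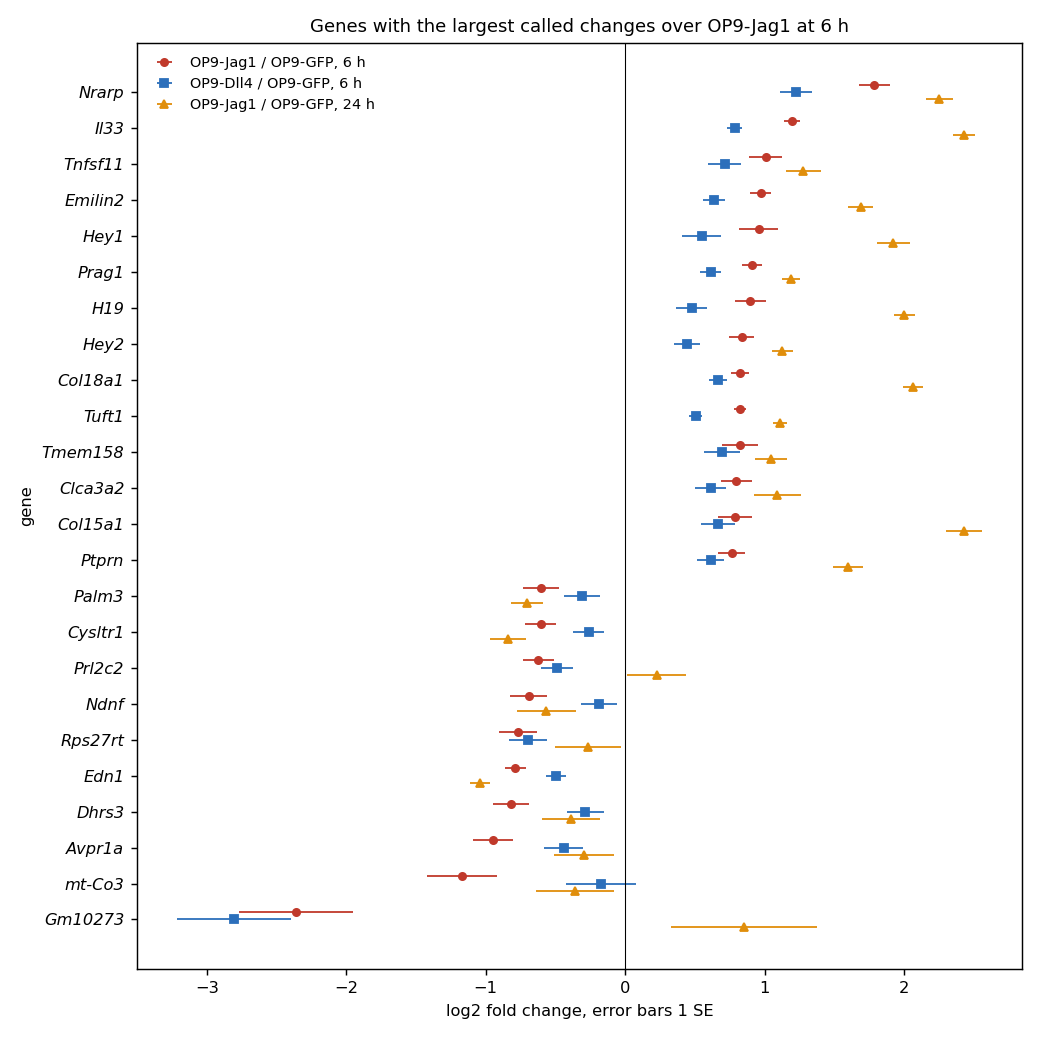
The 14 largest called rises and 10 largest called falls among genes with a mean signal of at least 4; the horizontal axis is the log2 fold change with 1 SE for OP9-Jag1 at 6 h (red circles), OP9-Dll4 at 6 h (blue squares) and OP9-Jag1 at 24 h (orange triangles), each against OP9-GFP of the same time. Nrarp and Il33 lead the rises at 1.79 and 1.197, and at 24 h Nrarp, Il33, Col15a1, Col18a1 and H19 lie at 2.00 or more.

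Among nuclear genes without near-identical copies and with a mean signal of at least 4, the largest falls were those of Avpr1a, Dhrs3 and Edn1. Avpr1a, a vasopressin receptor, went from 6.40, 11.1 and 5.61 to 3.29, 4.36 and 2.61 (log2FC -0.95 ± 0.14, adjusted p = 0.0026) without overlap. Dhrs3, an enzyme that reduces retinal to retinol, went from 7.10, 21.4 and 8.56 to 3.29, 13.0 and 4.26 (-0.82 ± 0.13, adjusted p = 0.004). It fell in each pair, although library 2 was high on both feeders and made the groups overlap. Edn1, which encodes the vasoconstrictor and endocardial signal endothelin-1 (ENSMUSG00000021367, chr13:42301476-42307990, plus strand), went from 21.5, 25.4 and 19.2 to 12.2, 14.3 and 10.5. All OP9-Jag1 values were below all OP9-GFP values, and the log2FC was -0.79 ± 0.07 (adjusted p = 8.9e-05). Ndnf (-0.69 ± 0.13), Cysltr1, a leukotriene receptor (-0.61 ± 0.11), and Palm3 (-0.60 ± 0.13) were called in 4, 3 and 1 of the 6 leave-one-out fits. Of the other 4 of the 10 largest falls, Gm10273 (10.4 in OP9-GFP library 2 and 0 reads in OP9-Jag1 library 2), Rps27rt and Prl2c2 have near-identical copies and cannot be assigned with certainty. The fourth, the mitochondrial gene mt-Co3, fell by 1.17 on the log2 scale (252, 217 and 265 against 80.4, 191 and 80.7), and was called in 2 of the 6 leave-one-out fits. Of 15 mitochondrial genes 3 were lower, with a median of -0.10, and library 2 of OP9-Jag1 stood nearer to OP9-GFP.

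Growth factor signalling moved in both directions. Fgf5, a secreted fibroblast growth factor, went from 26.5, 22.7 and 24.4 to 18.2, 14.1 and 16.2 (log2FC -0.57 ± 0.07, adjusted p = 0.0004), with the groups apart. Fgf2 was lower by a smaller amount (-0.29 ± 0.07) and was called in 0 of the 6 leave-one-out fits. Of the feedback inhibitors of ERK signalling, the phosphatases Dusp5 (0.39 ± 0.04) and Dusp6 (0.21 ± 0.03) and the adaptor Spry1 (0.29 ± 0.05) were higher, while Dusp4 was lower (-0.20 ± 0.04), so that 3 of 22 members of that list rose and 3 fell. Dusp4 was called in 1 of the 6 leave-one-out fits, and without the libraries numbered 2 the list had 3 higher and 1 lower. The shares of all genes were 1.89% higher and 1.49% lower in the main fit. Irs1, the main adaptor of the insulin and IGF receptors, went from 95.3, 89.8 and 85.2 to 69.0, 64.0 and 60.7 (-0.48 ± 0.04, adjusted p = 3.1e-05). These values did not overlap, and Irs1 was called under every alternative run except the unpaired fit of the 9 libraries. Pik3r1, a regulatory subunit of PI3-kinase, was lower by 0.23 on the log2 scale and Igf2 higher (0.46 ± 0.11), called in 0 and 1 of the 6 leave-one-out fits. Bdnf, a neurotrophin, went from 52.3, 61.1 and 52.5 to 40.9, 42.7 and 39.2 (-0.42 ± 0.05).

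The TGF-beta ligands Tgfb3 and Tgfb2 were higher. Tgfb3 went from 71.9, 55.7 and 64.9 to 103, 88.1 and 97.4 without overlap (log2FC 0.58 ± 0.05, adjusted p = 2.6e-05), and Tgfb2, a ligand of cushion formation in the embryonic heart, from 43.2, 48.8 and 42.0 to 54.3, 59.5 and 56.6 (0.34 ± 0.05, adjusted p = 0.0012). The matrix genes Ccn2, a TGF-beta and YAP target (-0.49 ± 0.11), and Ltbp1, which stores latent TGF-beta (-0.26 ± 0.06), were lower and were called in 3 and 1 of the 6 leave-one-out fits. Ccn2 was also called lower over OP9-Jag1 at 24 h, but it was called higher over rJAG1 and lower with RO4929097. Together 2 of 19 genes of the TGF-beta list rose and 2 fell, where 1.89% of all genes were called higher and 1.49% lower. In the BMP list Fst (0.42 ± 0.08) and Id1 (0.18 ± 0.04) were higher and the BMP antagonist Grem1 (-0.49 ± 0.11) was lower, of 20 genes. Those 3 calls held in 3, 1 and 0 of the leave-one-out fits. In the Wnt list of 25 the receptor Fzd8 was higher in each pair (0.65 ± 0.10), Wnt4 was higher (0.33 ± 0.08) and the R-spondin receptor Lgr4 lower (-0.24 ± 0.06), the last 2 called in 1 leave-one-out fit each. Zeb2 (0.27 ± 0.05, called in 2 of 6) was the only call among 23 genes of mesenchymal transition, a process in which cells leave the endocardium to fill the cushions. A single call in a list of that size is near the share of all genes called higher (1.89%).

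Guidance cues gave 3 higher and 4 lower genes of 27, where 1.89% of all genes were higher and 1.49% lower. The class 3 semaphorins, secreted repellents, were all on the lower side among those called: Sema3c went from 133, 244 and 173 to 104, 195 and 133 (log2FC -0.35 ± 0.03, adjusted p = 0.00013), Sema3d was lower by 0.33 ± 0.04 on the log2 scale at 106, 137 and 130 against 88.3, 109 and 98.3, and Sema3a stood at -0.23 ± 0.04. Each pair of Sema3c fell by a like amount, although its groups overlapped. The laminin-related Ntn4 (0.76 ± 0.13), the semaphorin receptor Plxnd1 (0.54 ± 0.13) and the ephrin Efnb1 (0.21 ± 0.05) were higher, called in 5, 1 and 1 of the 6 leave-one-out fits. Of 22 adhesion molecules Dsg2 (0.56 ± 0.09), Itga1 (0.48 ± 0.07) and Itga7 (0.30 ± 0.05) were higher, and the integrins Itgb8 (-0.49 ± 0.06) and Itga3 (-0.28 ± 0.06) lower. Itga3 was called in 1 of the 6 leave-one-out fits, where its log2FC came to -0.17 at the nearest to 0.

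Cell cycle genes showed a single marked member. Ccnd2, a D-type cyclin that drives entry into the cycle, went from 246, 150 and 193 to 368, 213 and 304 (log2FC 0.58 ± 0.04, adjusted p = 8.6e-06). It rose in each pair by a like amount, with library 1 highest and library 2 lowest on both feeders. Ccnd3 (0.17 ± 0.04) passed but was called in 0 of the leave-one-out fits, and 2 of 22 G1 genes were higher in all. None of the 36 genes of DNA replication and mitosis, the 31 of amino acid stress and the unfolded protein response or the 12 heat shock genes was called, with medians of 0.01, -0.01 and 0.04. Of the immediate early genes Egr1 (0.39 ± 0.06) and Jun (0.24 ± 0.05, called in 1 of the 6 leave-one-out fits) were higher, of 21. Some further lists had a single called member, a share near that of all genes (1.89% higher and 1.49% lower). These were Phlda3 of 24 p53 response genes (0.36 ± 0.06) and Scd2 of 31 lipid synthesis genes (0.17 ± 0.04, called in 0 of the 6 leave-one-out fits). The others were Ndrg1 of 26 hypoxia and glycolysis genes (-0.28 ± 0.05) and Cox7a2 of 30 respiratory chain subunits (higher, called in 1 of the 6 leave-one-out fits).

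Ribosomal protein genes were higher in part. Of a list of 34 there were 10 called higher and 0 lower, with a median log2FC of 0.12, led by Rps7 (0.57 ± 0.05), Rpl27 (0.33 ± 0.04) and Rps18 (0.30 ± 0.04). Of all 97 genes named Rpl or Rps 29 were higher and 1 lower, against 1.89% and 1.49% of all genes. That set was taken by name, so not every member need encode a ribosomal protein. Transcripts of ribosomal proteins are short, and length moved with the comparison. The median exon length was 3526 bases among the higher genes, 6726 among the lower and 4255 among all genes with a length, and Spearman's rank correlation between log2FC and length across 13870 genes was -0.25, which is a description, since genes are not independent replicates. In the single pairs this correlation was -0.09, -0.24 and -0.17. With the trend on length removed 414 genes were called (261 higher and 153 lower), among them 16 of the 97 genes so named on the higher side. Quantile normalization gave 19 of the 97 and leaving out the libraries numbered 2 gave 11, with medians of 0.11 and 0.10. Of the 470 genes 377 were still called with that trend removed, and the core Notch targets then had 4 of 5 higher with a median of 0.84.

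**Figure D4:**
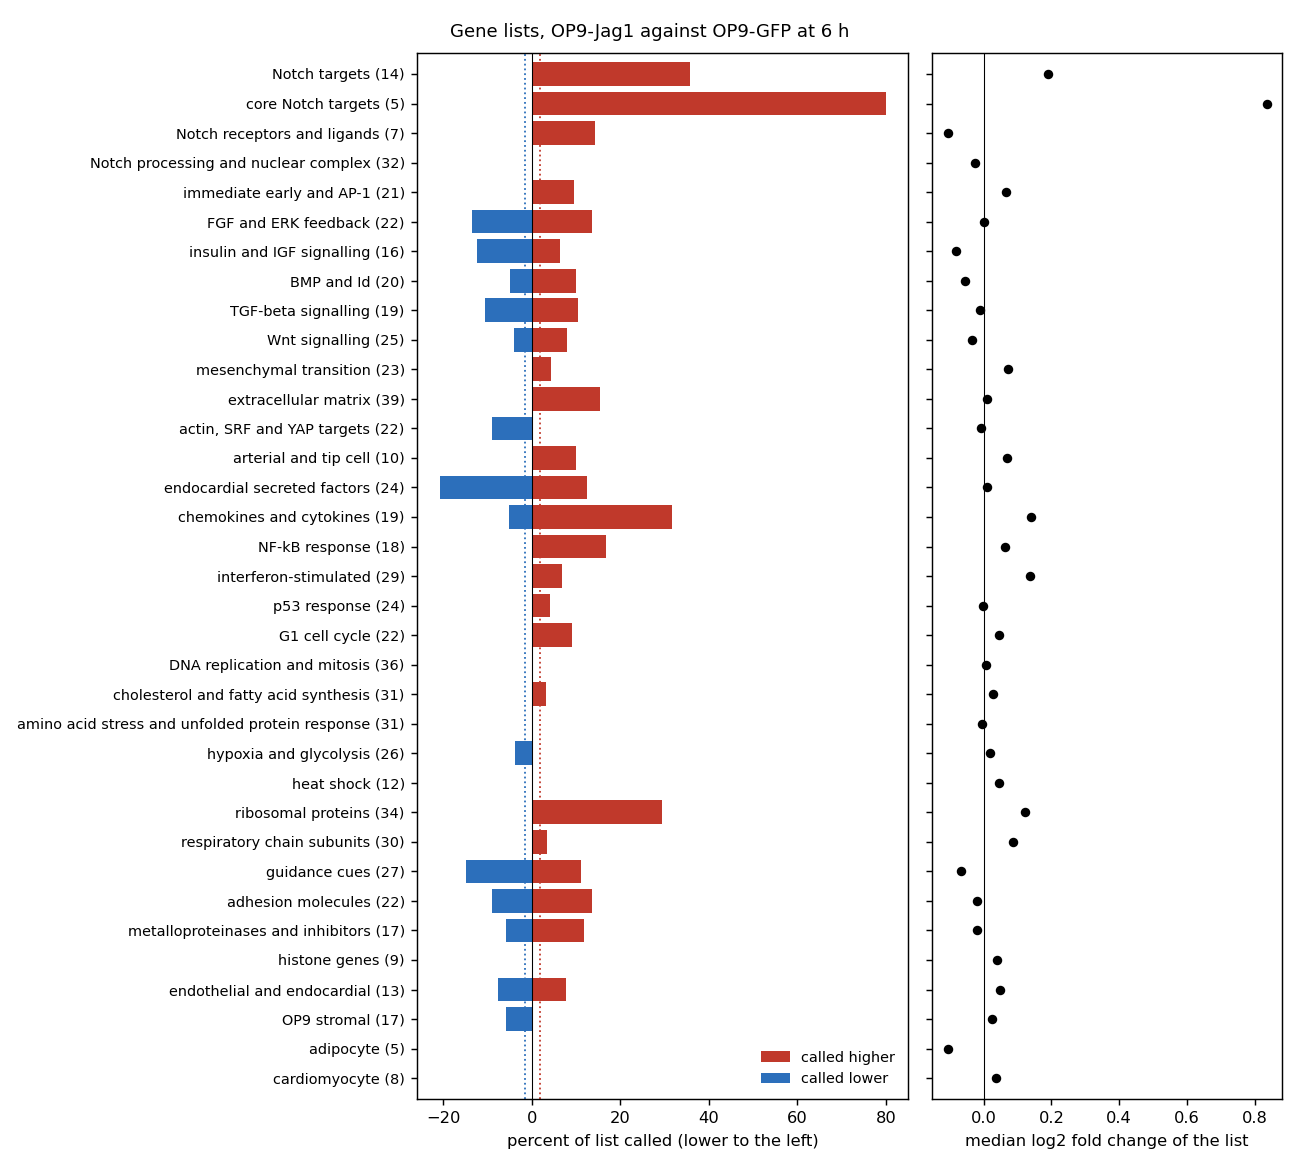
Left, percent of each gene list called higher (red, to the right) or lower (blue, to the left) over OP9-Jag1 at 6 h, with the number of genes measured in brackets and dotted lines at the share of all genes, 1.89% and 1.49%; right, the list's median log2 fold change. The core Notch targets stand at 80.0% and a median of 0.84, and the medians of all other lists lie between -0.11 and 0.19.

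Markers of the cells that could be present moved little. Of 13 endothelial and endocardial markers in the table Flt1, a VEGF receptor, was higher (2.58, 12.3 and 5.21 against 4.98, 19.1 and 8.37, log2FC 0.64 ± 0.09) and the flow-responsive factor Klf4 was lower (-0.34 ± 0.05). The summed signal of the list was 228 to 259 over OP9-GFP and 210 to 242 over OP9-Jag1. The list named 24 genes, of which only these 13 had values. The defining genes Pecam1, Cdh5, Tie1 and Emcn had none, nor did Erg, Sox7, Sox17, Sox18, Plvap, Vwf and Robo4, so they could not be analysed here. The 17 OP9 stromal markers summed to 6963 to 10372 over OP9-GFP and 7275 to 9704 over OP9-Jag1, with Cxcl12 as the member called. That list does not separate the 2 cell types, because Col1a1, at 3078 to 3342 over OP9-GFP, was also at 2054 to 2335 in MEEC grown without feeder cells, in an experiment that was normalized separately. None of 5 adipocyte, 8 cardiomyocyte or 3 leukocyte and erythroid markers was called, with sums of 252 to 331, 38.2 to 56.3 and 7.68 to 11.8 over OP9-GFP and of 251 to 302, 42.7 to 63.9 and 6.24 to 13.1 over OP9-Jag1. In bulk libraries fewer cells of a type and less RNA per cell cannot be told apart.

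Values over OP9-Dll4, the other ligand, come from libraries of the same 6 h and share the OP9-GFP libraries, so they are set side by side. Nrarp was at 30.2, 11.7 and 18.4 over OP9-Dll4 (log2FC 1.22 ± 0.11 against OP9-GFP) and Il33 at 78.1, 44.4 and 57.0 (0.79 ± 0.06). Hey1 stood at 0.55 ± 0.14 (adjusted p = 0.098) and Hey2 at 0.44 ± 0.09 (adjusted p = 0.04). In all, 150 genes (1.08%) were called for OP9-Dll4 against OP9-GFP, 97 higher (0.699%) and 53 lower (0.382%). The difference between the ligands itself passed in 4 genes (0.0288%), 3 of them lower over OP9-Dll4 (0.0216%) and 1 higher (0.0072%): Il33 was lower over OP9-Dll4 than over OP9-Jag1 by 0.41 on the log2 scale, Tuft1 by 0.32 and Apol9a by 0.48, and Gm42418, which overlaps a ribosomal RNA repeat, was higher by 0.44. That count was 0 without the block, 0 with quantile normalization and 0 to 2 with 1 library left out, and 79 in a fit of only these 2 groups. Apol9a had 15.4, 36.0 and 25.3 over OP9-GFP, 22.2, 47.7 and 30.3 over OP9-Jag1 and 16.1, 31.0 and 22.7 over OP9-Dll4. For Nrarp and Hey2 the difference between the ligands was -0.56 ± 0.11 and -0.39 ± 0.09, with adjusted p values of 0.13 and 0.25.

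At 24 h, in other libraries with fewer MEEC laid on the feeder, 1309 genes (9.43%) were called for OP9-Jag1 against OP9-GFP. Of the 263 genes higher at 6 h, 159 (60.5%) were called higher at 24 h too and 1 was called lower, where 4.8% of all genes were higher. Of the 207 lower genes 125 (60.4%) were lower again and 2 higher, against 4.63% of all genes. Nrarp was at 9.81, 8.48 and 7.95 over OP9-GFP and 57.1, 36.4 and 44.8 over OP9-Jag1 (log2FC 2.25 ± 0.10). Its effect at 24 h minus that at 6 h was 0.47 ± 0.17, which did not pass (limma adjusted p = 0.21). The difference of the effects, 24 h minus 6 h, was called in 182 genes (1.31%). Of the 263 genes higher at 6 h, 29 had a called greater value at 24 h, against 0.742% of all genes, and 9 a called smaller value, against 0.569%. Col15a1 had the greatest such difference among the named genes (1.65 ± 0.18), from 1.52, 1.77 and 1.88 over OP9-GFP to 15.8, 11.3 and 14.4 over OP9-Jag1 at 24 h. Dsg2 (1.33 ± 0.16), Col18a1 (1.24 ± 0.10), Il33 (1.24 ± 0.11), H19 (1.11 ± 0.16) and Hey1 (0.96 ± 0.18) followed. Some went the other way: Ccl2 had no called change at 24 h (-0.05 ± 0.05) and a difference of -0.49 ± 0.08, and Rps7 was at 0.05 ± 0.08 with a difference of -0.51 ± 0.12. Hes1 had a log2FC of 0.42 ± 0.06 at 24 h, and its difference of -0.17 ± 0.08 did not pass (adjusted p = 0.40).

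Wells without feeder cells and the block of gamma-secretase gave 2 further sets of libraries. Over rJAG1 143 of the 258 higher genes measured there (55.4%) were higher than in DMSO, where 7.38% of all genes were, and 4 were lower. Of 203 lower genes 49.8% were lower over rJAG1, against 7.7% of all genes, and 6 were higher. With RO4929097 over OP9-GFP 97 of 259 higher genes (37.5%) were lower than in DMSO, against 2.08% of all genes, and 0 were higher. Of 203 lower genes 44 (21.7%) were higher with the drug, against 1.21% of all genes, and 2 were lower. Those libraries carried no added ligand.

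Hes1 shows the 3 settings together. It stood at 43.5, 51.3, 41.7 and 44.5 with DMSO and at 19.7, 22.8, 25.3 and 27.4 with RO4929097 (log2FC -0.90 ± 0.09), and at 27.2, 32.2 and 29.8 in DMSO wells against 65.4, 80.6 and 48.5 over rJAG1 (1.07 ± 0.12). No value of 1 group reached into the other. Il33 had 49.2, 29.5, 37.9 and 42.7 with DMSO against 8.70, 8.55, 7.99 and 7.43 with the drug (-2.13 ± 0.11), and 23.1, 25.2 and 13.3 against 225, 243 and 213 over rJAG1 (3.45 ± 0.12). Both genes thus had values with the drug below those of the vehicle in all 4 pairs and above the vehicle in all 3 rJAG1 wells. Edn1 differed: it was lower over rJAG1 (28.8, 30.6 and 65.3 against 11.6, 14.1 and 20.1, log2FC -1.32 ± 0.14), while with the drug it was at 0.05 ± 0.08 (adjusted p = 0.81), with 22.6, 24.2, 29.1 and 22.3 against 20.3, 22.1, 26.1 and 26.1 in DMSO. Ackr3, a scavenging receptor for Cxcl12, was higher by 0.83 ± 0.12 at 6 h and by 0.67 ± 0.14 at 24 h, and was not called over rJAG1 (0.42 ± 0.15) or with the drug (-0.14 ± 0.13).

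In all 3 other settings, with the drug in the opposite direction, 75 of the 263 higher genes and 30 of the 207 lower genes were called. The share of all genes called in the 3 settings at once was not computed. In the single settings (24 h, rJAG1, drug) the shares of all genes were 4.8%, 7.38% and 2.08% in the directions of the 75. They were 4.63%, 7.7% and 1.21% in those of the 30. Among the 75 are the Notch genes Nrarp, Hes1, Hey1, Hey2 and Jag1, the cytokines Il33 and Tnfsf11, the matrix genes Emilin2 and Col18a1, the ligands Tgfb2 and Tgfb3, and Ccnd2, Dsg2, Ntn4, Rhoj and Tuft1. Sema3c is among the 30, at -0.998 ± 0.08 at 24 h, -1.63 ± 0.10 over rJAG1 and 0.39 ± 0.07 with the drug. Rhoj, a small GTPase of endothelial cells, went from 75.1, 70.4 and 64.7 to 99.0, 94.7 and 100.7 at 6 h (0.48 ± 0.05) and was at 0.45 ± 0.05 at 24 h.

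**Figure D5:**
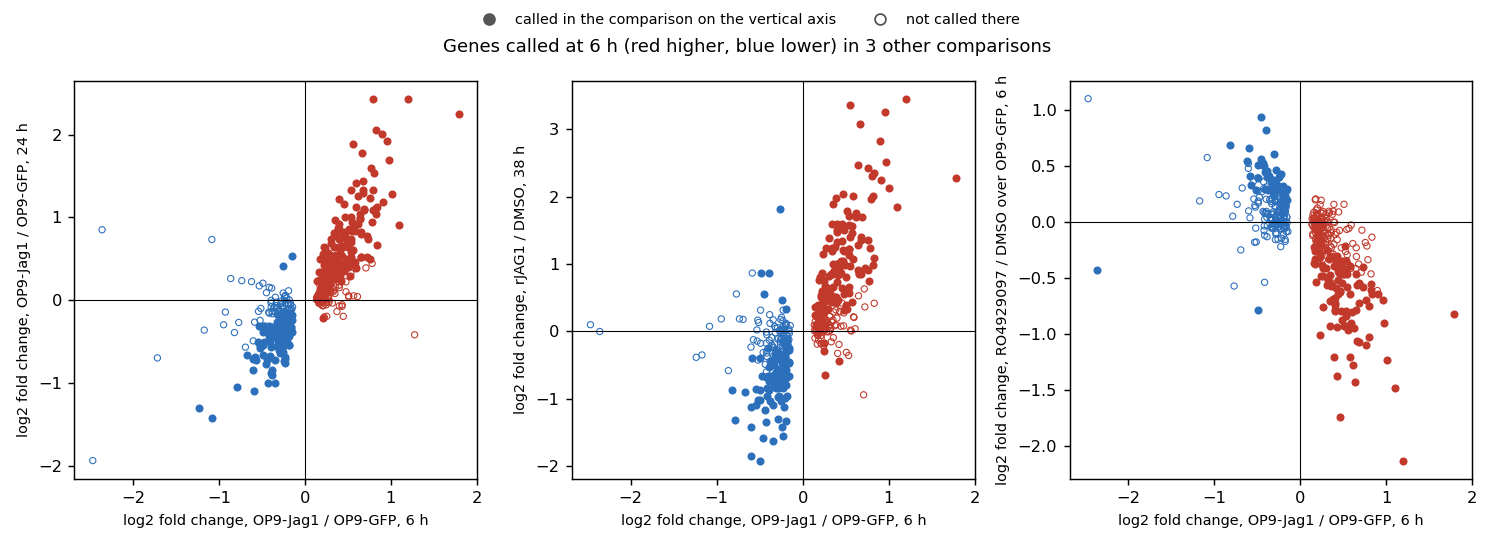
Genes called over OP9-Jag1 at 6 h (red higher, blue lower) with their log2 fold change at 6 h on the horizontal axis and, on the vertical axes, that of OP9-Jag1 at 24 h, rJAG1 at 38 h and RO4929097 at 6 h; filled points were called there too. Of the red genes 159 are filled above 0 at 24 h and 143 over rJAG1, and 97 are filled below 0 with RO4929097.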

How the data were processed

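Total RNA (PicoPure) went into NEBNext Ultra libraries, per the labels' protocols. FastQC, cutadapt, RSEM, limma and build GRCm38 are named in the submitters' processing notes, while annotation release and strand setting are not given in the sources used here. Per gene, the authors deposited a normalized signal in 3 tables, 1 per experiment. In all 3, values equal (reads + 0.5) over a scaled library size, and dividing by the step between low values gave whole reads within 0.01 for 100% of values. Of 13886 genes 13870 matched GENCODE M21 (GRCm38), which gave positions and exon lengths.

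From the deposited signal, log2(signal + 1) of the 9 libraries of 6 h was modelled on group and replicate number in limma 3.58.1 (R 4.3.3, mean-variance trend). Replicate number was taken as the pairing of the samples. Every same-numbered correlation was over 0.1, which does not by itself show that they are paired. The 24 h comparison was fitted alike on all libraries of 24 h. Those of RO4929097 and rJAG1 were fitted alike on all libraries of their own experiment. The difference of times was fitted on 18 libraries with a block within each time. Alternatives were no block, pseudocounts of 0.5 and 4, a mean signal of at least 4, quantile normalization, library weights, edgeR 4.0.16 and DESeq2 1.42.0 on the recovered reads, other sets of libraries, and each library left out. Chosen after the data were seen were leaving out all libraries of a number, removing a loess trend on exon length, and dropping mitochondrial genes and pseudogenes. Scripts were tested on simulated data.

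Named are the 14 largest rises and 10 largest falls among calls with a mean signal of at least 4 and the same direction in all pairs, genes called also without the block in the 18 libraries, all core Notch targets, receptors and ligands, up to 4 called members of each other list, up to 5 called for each difference between ligands or times, and up to 6 called in all comparisons. Genes outside this rule, such as Myc, Rbpj, Dusp6 and Col6a1, were named after their values were seen. The comparison, the lists and the rules were chosen with earlier results of these data known.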

Additional observations from a re-analysis of the deposited data

Results flagged for a closer look

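The effect of OP9-Jag1 differed between 24 h and 6 h, by a test of the difference itself in 18 libraries (limma, adjusted p under 0.05), in 28 of the genes named here. Values are the log2 fold change at 24 h minus that at 6 h. Notch1 (0.77) and Col1a1 (0.40) had no called change at 6 h and were higher at 24 h. The other greater effects at 24 h were those of Col15a1 (1.65), Dsg2 (1.33), Col18a1 (1.24), Il33 (1.24), H19 (1.11), Hey1 (0.96), Ptprn (0.84), Eln (0.76), Emilin2 (0.72), Igf2 (0.70), Adam12 (0.47), Itga7 (0.44), Tnfaip2 (0.42), Scd2 (0.33), Tgfb2 (0.30), Tuft1 (0.29) and Ccnd2 (0.26). Ltbp1 changed sides (0.67): it was lower at 6 h by 0.26 on the log2 scale and higher at 24 h by 0.41 ± 0.10. Adamts9 (-0.46) and Sema3c (-0.65) fell further at 24 h, while the rises of Ccl2 (-0.49), Ccl7 (-0.45), Rps7 (-0.51) and Krt14 (-0.47) were not called at 24 h. Krt19 (-0.43) was higher at 6 h and lower at 24 h. Ccl7, Col1a1 and the keratins were named after their values were seen. Gm9780 (-1.69) had 0 reads in all 3 OP9-GFP libraries of 6 h and signals of 2.08, 1.97 and 0.705 over OP9-Jag1, so its fitted value depends on the pseudocount. MEEC confluency also differed between the times, and the 2 cannot be told apart.

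The ligands differed at 6 h, OP9-Dll4 minus OP9-Jag1, in Apol9a (-0.48), Il33 (-0.41), Tuft1 (-0.32) and Gm42418 (0.44), each with a limma adjusted p of 0.04.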

How the results depend on the processing

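Counts of called genes are given by setting. Without the replicate block the count for OP9-Jag1 at 6 h was 2 in place of 470, for OP9-Dll4 against OP9-Jag1 0 in place of 4, for OP9-Dll4 0 in place of 150, at 24 h 353 in place of 1309, for the difference of times 1 in place of 182, for RO4929097 118 in place of 427 and for rJAG1 1285 in place of 2022. In 18 libraries with 1 block over both times the counts were 82 (OP9-Jag1), 0 (between ligands), 7 (OP9-Dll4) and 628 (24 h), and with no block 14, 0, 1 and 281. DESeq2 with the block gave 279 for OP9-Jag1 at 6 h, 16 between ligands and 777 at 24 h, and edgeR 472, 4 and 1289. For RO4929097 and rJAG1 they gave 448 and 2047 (DESeq2) and 378 and 2020 (edgeR). Library weights gave 247 for OP9-Dll4 and 3186 for rJAG1. The comparison of ligands gave 13 with a mean signal of at least 4, 0 with quantile normalization, 79 with only its 2 groups and 0 in 18 libraries with a block within each time. With 1 library, or all libraries of 1 number, left out the ranges were 157 to 315 for OP9-Jag1 at 6 h (197 to 315 for single libraries and 157, 248 and 161 for numbers 1, 2 and 3), then 0 to 2, 43 to 122, 804 to 1142, 89 to 218, 120 to 363 and 1366 to 2825, in the order of the first sentence of values. Of the 470 genes 100 higher and 53 lower were called in all 6 single-library fits. Of the values of genes named for OP9-Jag1 at 6 h, 1652 stayed on their side of the threshold, 545 no longer passed and 0 changed sign. At 14.5 to 16.3 M reads a signal under 0.179 to 0.202 rests on fewer than 3 reads.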

Other observations

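Keratins, a family noticed after the values were seen, were higher over OP9-Jag1 in 5 of the 10 measured members (median log2FC 0.29) and lower in 0, where 1.89% of all genes were higher. The epithelial pair Krt8 and Krt18, which fill simple epithelia and some endothelium, went from 765, 601 and 884 to 985, 820 and 1087 (log2FC 0.37 ± 0.04) and from 511, 416 and 630 to 716, 589 and 852 (0.47 ± 0.03). Krt14, a basal keratin, went from 709, 596 and 767 to 882, 829.4 and 1019 (0.40 ± 0.04), and Krt19 from 475, 380 and 510 to 552, 442 and 589 (0.21 ± 0.04). Krt79 had the largest change, from 1.56, 0.855 and 0.638 to 5.28, 1.97 and 3.10 (1.099 ± 0.16). All 5 rose in each of the 3 pairs. At 24 h they parted: Krt8, Krt18 and Krt79 were higher by 0.49, 0.65 and 0.90, Krt14 was not called (-0.07) and Krt19 was lower (-0.21).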
